A study of Mus musculus with 4 samples.

Results

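The phagocyte NADPH oxidase and the pore-forming protein perforin-2 were followed in T8 cells through 6 genes, *Cybb*, *Cyba*, *Ncf1*, *Ncf4*, *Rac2* and *Mpeg1*, out of 55359 gene identifiers in the count table. The genes were chosen by their expression in IRF4-RV against EV-RV libraries, with results of these libraries known. Differences of the 6 genes between the groups are therefore given as a description. Where a call of these genes is printed, nothing is read from it. All 6 passed the filter on low counts, as did 14637 genes in total. T8 is a cell line of B-cell progenitor acute lymphoblastic leukemia, established from the primary tumor of a single *Irf4*-/- mouse on the C57Bl/6 background, and all libraries carry this genotype. The cells were transduced with a retrovirus coding for GFP alone (EV-RV) or for GFP plus IRF4 (IRF4-RV), and bulk RNA was sequenced a day later from 2 libraries per group. The study describes the sequenced cells as those still viable at that time, and it reports apoptosis of cells given IRF4-RV. The protocol in the labels names T11 cells, whereas titles and tissue name T8. Whether GFP+ cells were sorted for RNA is not given in the sources used here, and the 2 libraries of a group are described as biological replicates without saying whether they came from separate cultures, so that p-values measure the spread between these libraries only.

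The oxidase of phagocytes reduces oxygen to superoxide with electrons from NADPH. Its membrane core, flavocytochrome b558, is a heterodimer of gp91phox (*Cybb*), which carries the electrons, and p22phox (*Cyba*), and each partner is needed for the stability of the other. The chaperone EROS (*Cybc1*) supports the making of this core. On activation, the organizer p47phox (*Ncf1*), the modulator p40phox (*Ncf4*) and a Rac GTPase (*Rac2*, or *Rac1* in other cells) join it from the cytosol, among other proteins. Perforin-2 (*Mpeg1*) is a membrane protein of the MACPF family that forms pores in phagocytosed bacteria. Both systems are best known from macrophages and neutrophils, and B cells also express oxidase components.

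The libraries held between 31230223 and 37817752 counts. Values are given as counts and as CPM, counts relative to the size of the library after TMM scaling, and a gene with at most 3 counts was taken as not detectable. *Irf4* itself was counted 8070 and 7600 times in EV-RV cells and 95578 and 90693 times in IRF4-RV cells. Reads of the vector, of the endogenous locus and of a residual transcript of the deleted allele are not separated. The B-cell genes *Cd79a* and *Pax5* had at least 6670 counts in each library. Stromal cell markers stood apart in 1 library. The summed level of 8 such genes was 221 CPM in IRF4-RV replicate 2, against 47.0 CPM in IRF4-RV replicate 1 and 47.5 and 89.3 CPM in EV-RV cells.

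The sequence before the start site is shown for the 3 members with the largest rise, *Cybb*, *Mpeg1* and *Ncf1*, because IRF proteins bind short repeats of GAAA. Entries from RefSeq (GRCm38.p6) were matched for *Cybb*, *Cyba*, *Ncf1*, *Mpeg1* and *Cybc1*, and *Ncf4*, *Rac2* and *Rac1* had none. Each run below is the 250 bases before the start site, written 5′ to 3′ along the gene. Capitals mark matches to GAAANNGAAA, a direct repeat bound by IRF proteins, or to GGAANNGAAA, a composite of an ETS and an IRF site, on either strand. *Cybb* lies at chrX:9469325-9469574 on the minus strand, *Ncf1* at chr5:134229626-134229875 on the minus strand and *Mpeg1* at chr19:12460520-12460769 on the plus strand. The RefSeq start of *Cybb* lies inside the span that GENCODE gives the gene, which has 5 annotated transcripts.
Cybb: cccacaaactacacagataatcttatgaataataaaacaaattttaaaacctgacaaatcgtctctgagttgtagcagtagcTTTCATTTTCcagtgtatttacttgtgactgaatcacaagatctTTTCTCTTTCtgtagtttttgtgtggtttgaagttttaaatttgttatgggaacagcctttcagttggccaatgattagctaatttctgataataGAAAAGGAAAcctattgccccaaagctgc
Ncf1: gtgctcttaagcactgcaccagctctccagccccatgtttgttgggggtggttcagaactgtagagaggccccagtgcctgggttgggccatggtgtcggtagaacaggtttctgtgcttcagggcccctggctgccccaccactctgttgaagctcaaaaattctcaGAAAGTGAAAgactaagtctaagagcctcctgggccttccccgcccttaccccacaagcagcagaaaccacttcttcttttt
Mpeg1: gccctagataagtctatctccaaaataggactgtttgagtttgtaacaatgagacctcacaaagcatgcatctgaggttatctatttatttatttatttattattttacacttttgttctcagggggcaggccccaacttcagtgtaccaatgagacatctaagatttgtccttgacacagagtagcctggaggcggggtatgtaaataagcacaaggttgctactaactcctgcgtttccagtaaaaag

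Within the window from 250 bases before to 50 bases after the start, *Cybb* held 3 direct repeats. The match GAAAATGAAA lay at -168 to -159 and GAAAGAGAAA at -124 to -115, both against the direction of the gene, and GAAAAGGAAA lay at -29 to -20 along it. Just after the start, at positions 4 to 13, *Cybb* held the composite match GGAAATGAAA against the direction of the gene. *Ncf1* held 1 direct repeat, GAAAGTGAAA, at -82 to -73. *Mpeg1*, *Cyba* and *Cybc1* held neither motif in this window, which says nothing of sites elsewhere. Of 32851 promoter entries of the same length, 3.44% held the direct repeat, 2.72% the composite and 5.92% either. These matches are descriptions of letters and were not tested as binding sites.

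*Cybb*, the gene of the electron-carrying gp91phox, was barely detectable in EV-RV cells. It was counted 10 and 8 times in EV-RV cells and 1173 and 1119 times in IRF4-RV cells. Both IRF4-RV libraries were far above both EV-RV libraries. In CPM, it was at 0.276 ± 0.0325 (SD, n = 2) in EV-RV cells and at 32.7 ± 2.76 (SD, n = 2) in IRF4-RV cells, a 118.1-fold difference of the means. The exact 95% Poisson intervals of the 10 and 8 counts reached from 4.80 to 18.4 and from 3.45 to 15.8 counts, and such intervals cover counting error only. The log2 fold change was 6.86 (standard error 0.179) and leaving out any 1 library moved it to between 6.75 and 6.98. *Cybb* (ENSMUSG00000015340) is on chromosome X of GRCm38 from 9435252 to 9487771, minus strand, and no annotated gene overlaps it.

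*Mpeg1*, which encodes perforin-2, had a change of similar size. It was counted 40 and 16 times in EV-RV cells and 3248 and 3572 times in IRF4-RV cells. The IRF4-RV libraries lay close together, whereas the EV-RV libraries differed by more than their counting intervals, 0.856 to 1.63 CPM against 0.290 to 0.824 CPM. The means were 0.852 ± 0.488 CPM (SD, n = 2) and 96.9 ± 1.55 CPM (SD, n = 2), and the log2 fold change was 6.81 (standard error 0.220). Its size rested on the low EV-RV libraries, with 7.56 without EV-RV replicate 1 and 6.34 without EV-RV replicate 2. *Mpeg1* (ENSMUSG00000046805, chromosome 19, 12460779 to 12465283, plus strand) has a single annotated transcript.

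*Ncf1* was the third member that was higher in IRF4-RV cells, from a low level. The organizer subunit p47phox that it encodes links the cytosolic subunits to p22phox. It was counted 191 and 185 times in EV-RV cells and 541 and 514 times in IRF4-RV cells. The groups did not overlap, at 5.79 ± 0.102 CPM (SD, n = 2) and 15.03 ± 1.31 CPM (SD, n = 2), and the log2 fold change was 1.38 (standard error 0.125). *Ncf1* (ENSMUSG00000015950, chromosome 5, 134220053 to 134229625, minus strand) shares 408 exon bases with *Gtf2ird2* on the opposite strand. *Gtf2ird2* was at 9.15 CPM in EV-RV cells and 11.0 CPM in IRF4-RV cells, and without knowledge of the strand setting its reads in the shared bases cannot be told from those of *Ncf1*.

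*Ncf4*, the gene of p40phox, which binds phosphoinositides of the phagosome and modulates the oxidase, went the opposite way. It was counted 1742 and 1547 times in EV-RV cells and 951 and 1081 times in IRF4-RV cells. Both IRF4-RV libraries were below both EV-RV libraries, at 28.9 ± 1.14 against 50.6 ± 2.22 CPM (SD, n = 2 each), and the log2 fold change was -0.81 (standard error 0.089). *Ncf4* (ENSMUSG00000071715) lies on the plus strand of chromosome 15 from 78244801 to 78262580.

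The remaining pair of members was abundant in both groups. *Cyba*, the p22phox partner of gp91phox, was at 106.1 and 119.0 CPM in EV-RV cells and at 119.8 and 126.8 CPM in IRF4-RV cells. The log2 fold change of *Cyba* was 0.13 (standard error 0.085). The groups did not overlap, but the gap between their means was smaller than the difference between the EV-RV libraries. *Rac2*, the Rac GTPase of blood cells, was at 492.9 and 519.6 CPM in EV-RV cells and at 590.8 and 573.1 CPM in IRF4-RV cells. The log2 fold change of *Rac2* was 0.20 (standard error 0.072), and its call was lost without EV-RV replicate 1, without IRF4-RV replicate 1 and without IRF4-RV replicate 2, with values of 0.15, 0.16 and 0.23. *Cyba* (ENSMUSG00000006519) is on chromosome 8 from 122424776 to 122432930 and *Rac2* (ENSMUSG00000033220) on chromosome 15 from 78559167 to 78572783, both on the minus strand.

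**Figure D1:**
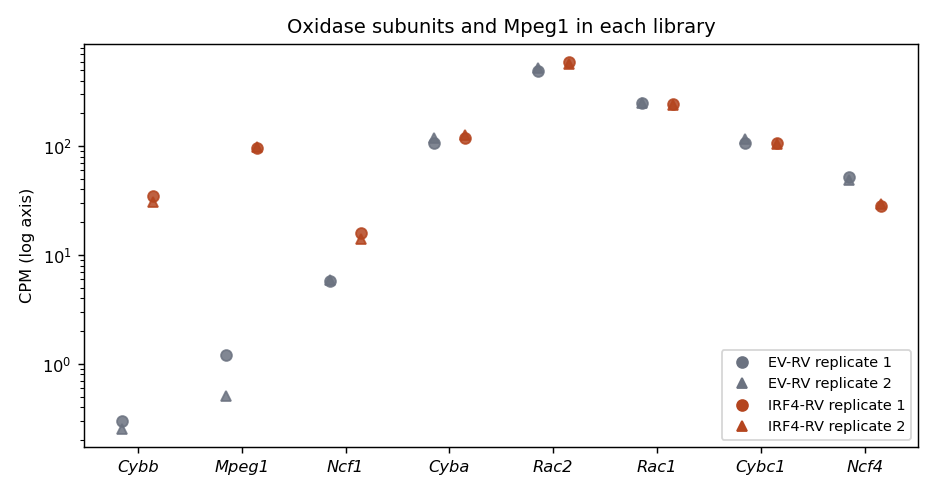
CPM of the 6 genes and of *Rac1* and *Cybc1* in each of the 4 libraries, on a log axis, gray for EV-RV and red for IRF4-RV (circles, replicate 1; triangles, replicate 2). *Cybb* and *Mpeg1* are at most 1.20 CPM in the EV-RV libraries and at least 30.7 CPM in the IRF4-RV libraries, whereas *Cyba* and *Rac2* are at 106.1 CPM or more in every library.

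By edgeR's quasi-likelihood test at a false discovery rate of 0.1, the cutoff used in the study, 5 of the 6 genes were called, 4 higher and 1 lower. Of all 14637 genes tested, 29.7% were called, 16.0% higher and 13.7% lower. Without TMM factors, 1743 genes were called higher and 2867 lower, against 2340 and 2009 with them. As the 6 genes were picked from this contrast, nothing is read from their calls or their share. Over 10 alternative settings, the log2 fold change ranged from 6.75 to 6.98 for *Cybb* and from 6.34 to 7.56 for *Mpeg1*. It ranged from 1.26 to 1.47 for *Ncf1* and from -0.90 to -0.77 for *Ncf4*. For *Rac2* it ranged from 0.11 to 0.24 and for *Cyba* from 0.04 to 0.22.

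The core genes *Rac1* and *Cybc1*, which were not picked, were tested in the same fit. *Rac1*, the ubiquitous Rac GTPase, was at 248.1 ± 1.41 CPM (SD, n = 2) in EV-RV cells and 243.3 ± 4.50 CPM (SD, n = 2) in IRF4-RV cells (log2 fold change -0.03, edgeR adjusted p = 0.814). *Cybc1*, which encodes the chaperone EROS, was at 111.6 ± 6.44 CPM and 105.3 ± 2.21 CPM (SD, n = 2 each; log2 fold change -0.08, edgeR adjusted p = 0.501). *Rac1* shares 2309 exon bases with *Daglb* and *Cybc1* 68 with *Hexdc*, each on the opposite strand. Neither was called, and the calls among the 7 core genes described here were all of genes picked from this contrast.

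To ask which subunit was scarcest, levels were divided by the length of all annotated exons of a gene, since counts grow with length. In EV-RV cells, *Cybb* was the lowest of the 7 core transcripts described here, at 0.0516 and 0.0437 CPM per kb. *Ncf1* came next at 1.56 and 1.60 CPM per kb, which was 30.3 and 36.7 times the level of *Cybb* in the same library. *Ncf4* and *Cybc1*, at means of 25.1 and 26.5 CPM per kb, overlapped between libraries and did not differ beyond their spread. *Rac1* at 55.2, *Cyba* at 108.3 and *Rac2* at 163.1 CPM per kb completed the order, each above its lower neighbor in both libraries.

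In IRF4-RV cells, the 2 lowest places were exchanged. *Ncf1* was now the lowest of the 7, at 4.36 and 3.85 CPM per kb, and *Cybb* was second, at 5.96 and 5.29 CPM per kb. The level of *Ncf1* was 0.731 and 0.728 times that of *Cybb* in the 2 libraries. *Ncf4* at 14.3 CPM per kb followed, and the 4 highest places, held by *Cybc1*, *Rac1*, *Cyba* and *Rac2*, were in the same order as in EV-RV cells. In all 4 libraries *Cybb* and *Ncf1* filled the 2 lowest places and *Cyba* and *Rac2* the 2 highest, under each of 3 definitions of gene length.

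**Figure D2:**
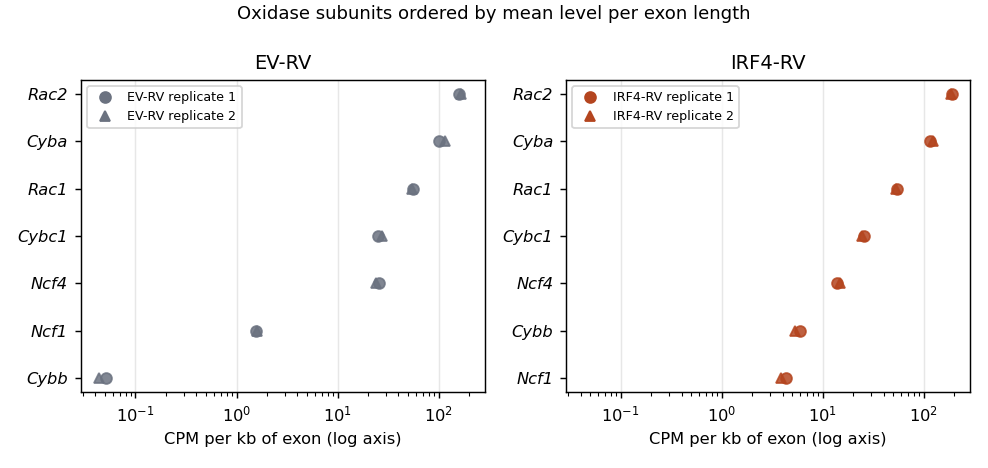
The 7 core oxidase transcripts described ordered by their mean CPM per kb of annotated exon, on a log axis, EV-RV on the left and IRF4-RV on the right (circles, replicate 1; triangles, replicate 2). *Cybb* is the lowest in EV-RV cells, at 0.0516 and 0.0437 CPM per kb, and second to *Ncf1* in IRF4-RV cells, at 5.96 and 5.29 CPM per kb.

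The balance within the membrane core was followed through the level of *Cybb* per kb as a percentage of that of *Cyba*. *Cybb* was at 0.0505% and 0.0381% of *Cyba* in EV-RV cells and at 5.17% and 4.33% in IRF4-RV cells. Thus *Cyba* exceeded *Cybb* in every library. *Ncf1* was at 1.53% and 1.40% of *Cyba* in EV-RV cells and at 3.78% and 3.16% in IRF4-RV cells. *Ncf4*, in contrast, went from 25.3% and 21.2% to 12.1% and 12.0%. Among the cytosolic subunits, the excess of *Ncf4* over *Ncf1* per kb narrowed from 16.5-fold and 15.2-fold to 3.19-fold and 3.81-fold. Of the Rac GTPases, *Rac2* was at 2.87 and 3.05 times the level of *Rac1* per kb in EV-RV cells and at 3.47 and 3.46 times in IRF4-RV cells. These ratios were not tested, since the members were selected on the same contrast. Levels of mRNA per length do not give the amounts of protein, so that they rank transcripts and not subunits in the assembled oxidase.

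*Cybb* was the only gene of a catalytic NADPH oxidase subunit with more than 3 counts in any library. The genes named here were chosen after their values were seen. *Nox1*, *Nox3*, *Nox4*, *Duox1* and *Duox2* had at most 2 counts in each library, and *Noxo1*, which replaces p47phox in other oxidases, had between 3 and 7. None of the 9 genes of other NADPH oxidases was high enough to be tested. The summed level of these 9 genes was between 0.148 and 0.285 CPM.

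Among 18 genes that act on the oxidase from outside, 16 were tested, of which 3 were called higher and 2 lower (median log2 fold change 0.14). The shares over all genes tested were 16.0% higher and 13.7% lower. *Hvcn1*, the voltage-gated proton channel that balances the charge moved by the oxidase, rose by 0.94 on the log2 scale (edgeR adjusted p = 0.000425), with 59.2 and 50.2 CPM in EV-RV libraries and 105.8 and 104.3 CPM in IRF4-RV libraries. *Prkca*, a kinase of the family that phosphorylates p47phox, rose by 0.41 on the log2 scale (edgeR adjusted p = 0.0367), and so did *Prkcd*, named after its values were seen, by 0.40 (edgeR adjusted p = 0.0125). *Prkcb* of the same family, also named after its values were seen, was not called (log2 fold change 0.215, edgeR adjusted p = 0.256). *Pik3cg*, a phosphoinositide 3-kinase subunit, changed by -0.94 (edgeR adjusted p = 0.00167) and *Prdx6*, a peroxiredoxin with phospholipase activity, by -0.55 (edgeR adjusted p = 0.00456). The Rac exchange factors tested, *Vav1*, *Vav2*, *Prex1* and *Dock2*, named after their values were seen, were not called, with the largest log2 fold change in *Vav2* (0.20, edgeR adjusted p = 0.200).

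The supply of NADPH and the defense against its reactive products showed changes in both directions, as did all genes tested, with 16.0% called higher and 13.7% lower. Of 11 genes that supply NADPH, 1 was called higher and 2 lower (median log2 fold change -0.04). *Pgls*, a lactonase of the pentose phosphate pathway, changed by 0.33 (edgeR adjusted p = 0.0323), the NAD kinase *Nadk* by -0.31 (edgeR adjusted p = 0.0262) and *Idh2* by -0.27 (edgeR adjusted p = 0.0541). With edgeR on 3 libraries, 1 of these 11 genes was called without EV-RV replicate 1, 1 without IRF4-RV replicate 1 and 0 without IRF4-RV replicate 2, where 1 had an unadjusted p under 0.05. Of 19 genes tested for the handling of reactive oxygen, 4 were called higher and 5 lower (median 0.03). This balance moved with the libraries and the scaling, to 1 higher and 4 lower without IRF4-RV replicate 2, 1 and 5 without EV-RV replicate 1, 6 and 3 without EV-RV replicate 2, 3 and 3 without IRF4-RV replicate 1, and 2 and 6 with library size only. *Gclc*, the catalytic subunit of the rate-limiting step of glutathione synthesis, rose by 1.06 (standard error 0.0739, edgeR adjusted p = 5.73e-05). Glutathione reductase, *Gsr*, changed by -0.58 (edgeR adjusted p = 0.00333), thioredoxin reductase, *Txnrd1*, by -0.41 (edgeR adjusted p = 0.0051) and catalase, *Cat*, by -0.39 (edgeR adjusted p = 0.00918).

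**Figure D3:**
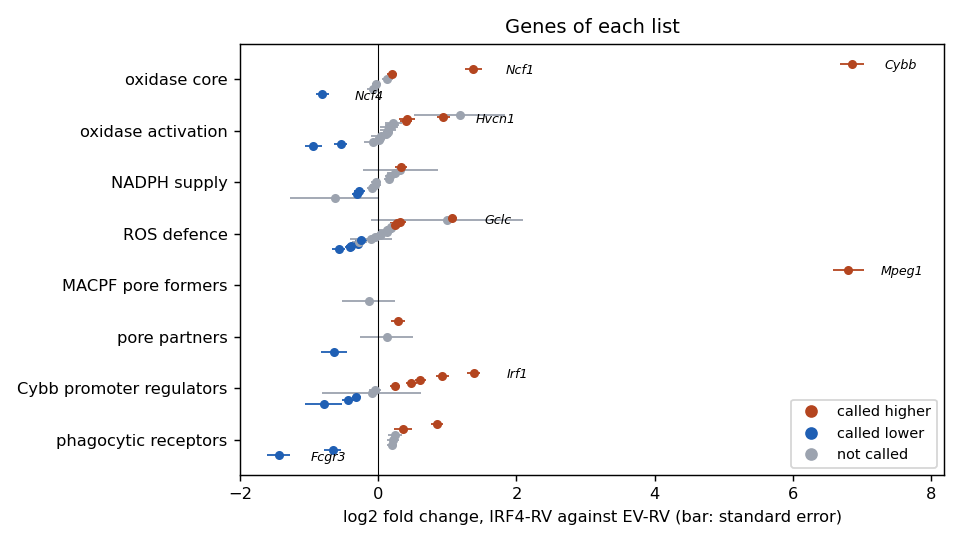
Log2 fold change of IRF4-RV against EV-RV for genes tested in 8 lists, with standard errors as bars and calls at a false discovery rate of 0.1 in red (higher) and blue (lower). *Cybb* at 6.86 and *Mpeg1* at 6.81 stand far to the right of all other genes shown, the next of which is *Irf1* at 1.38.

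Of 7 genes of MACPF pore formers, 2 were tested, *Mpeg1* and *Prf1*. As *Mpeg1* was picked from this contrast, nothing is read from its call. Over all genes tested, 16.0% were called higher and 13.7% lower. *Prf1*, the perforin of cytotoxic lymphocytes, had between 24 and 26 counts in each library (log2 fold change -0.14, edgeR adjusted p = 0.832). The complement genes *C6*, *C7*, *C8a*, *C8b* and *C9* had at most 1 count. Of 5 genes for partners of pores and other pore formers, 3 were tested. *Gsdmd* changed by 0.28 (edgeR adjusted p = 0.0816) and *Gsdme*, another gasdermin, by -0.64 (edgeR adjusted p = 0.0466). Both calls were lost in the edgeR fit without EV-RV replicate 2 and in that without IRF4-RV replicate 2, each with 1 gene at an unadjusted p under 0.05. The call of *Gsdmd* was also lost without EV-RV replicate 1 and without IRF4-RV replicate 1.

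Of 10 tested transcription factors listed as regulators of the *Cybb* promoter and counted here, 5 were called higher and 3 lower (median log2 fold change 0.09). Over all genes tested, 16.0% were called higher and 13.7% lower. *Irf1* was counted 690 and 628 times in EV-RV cells and 1885 and 1829 times in IRF4-RV cells. It rose by 1.38 (edgeR adjusted p = 5.51e-05) and *Runx1* by 0.93 (edgeR adjusted p = 0.000367). *Cebpb* changed by -0.79 (edgeR adjusted p = 0.0729) from 249 and 133 counts that differed widely between the EV-RV libraries. *Spi1*, which encodes the ETS factor PU.1, and *Irf8*, both named after their values were seen, were expressed in both groups and changed by -0.45 (edgeR adjusted p = 0.00854) and -0.32 (edgeR adjusted p = 0.0152). *Irf2*, also named after its values were seen, rose by 0.61 (edgeR adjusted p = 0.00171).

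Beside the 16.0% called higher and 13.7% lower over all genes tested, receptors and kinases through which phagocytes trigger the oxidase were read. Of 13 such genes, 7 were tested, with 2 called higher and 2 lower (median log2 fold change 0.21). The higher calls fell to 1 without EV-RV replicate 2, without IRF4-RV replicate 1, with DESeq2, with its size factors, with library size only, with a filter of 10 counts in 2 libraries and at a false discovery rate of 0.05. *Fcgr2b*, the inhibitory Fc receptor of B cells, rose by 0.85 (edgeR adjusted p = 0.00047), while its neighbor *Fcgr3* changed by -1.45 (edgeR adjusted p = 0.000952). These paralogs could share reads. *Tlr4* changed by -0.66 (edgeR adjusted p = 0.00758) and *Tlr2* by 0.35 (edgeR adjusted p = 0.0996). *Fcgr1*, *Fcgr4*, *Itgam* and *Clec7a* had at most 2 counts in each library and *Fcer1g* at most 5, genes named after their values were seen.

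As *Cybb* and *Mpeg1* mark myeloid cells, the defining markers of such cells were read in the same libraries. In bulk RNA, fewer cells of a type cannot be told apart from less RNA per cell. The 14 macrophage markers summed to 1.53 and 1.52 CPM in EV-RV cells and to 8.59 and 7.52 CPM in IRF4-RV cells, but 11 of the 14 had at most 3 counts in every library, and *Adgre1*, *Cx3cr1* and *Mertk* had 0. *Csf1r* and *Lyz2* had at most 3 counts. *Cd68* had 21 and 15 counts in EV-RV cells and 25 and 29 in IRF4-RV cells and was not called. *Cd14* had 0 and 5 counts in EV-RV cells and 4 and 9 in IRF4-RV cells and was not tested. Most of the 291 and 274 summed counts in IRF4-RV cells were of *Mrc1*, with 24 and 23 counts in EV-RV cells and 260 and 230 in IRF4-RV cells. The 13 neutrophil markers summed to 1.26 and 1.30 CPM in EV-RV cells and to 2.83 and 2.55 CPM in IRF4-RV cells. Among them, *Ly6g*, which has close paralogs, had 1 and 0 counts in EV-RV cells and 71 and 58 in IRF4-RV cells, whereas *S100a8*, *S100a9*, *Camp* and *Ngp* had 0 in all libraries. *Csf3r*, also in this list, had 34 and 35 counts in EV-RV cells and 22 and 29 in IRF4-RV cells. It was not called (log2 fold change -0.55, edgeR adjusted p = 0.332). Markers of dendritic cells summed to between 0.868 and 1.43 CPM, with *Itgax* and *Siglech* at 0. Among them, *Zbtb46* had 27 and 24 counts in EV-RV cells and 30 and 37 in IRF4-RV cells. *Xcr1* had 1 and 2 counts in EV-RV cells and 8 and 15 in IRF4-RV cells. T and NK cell markers summed to 48.3 and 48.1 CPM in EV-RV cells and to 33.0 and 32.6 CPM in IRF4-RV cells. Nearly all of it came from *Trac* and *Zap70*, while *Cd3d*, *Cd3e*, *Cd3g*, *Cd8a*, *Cd4*, *Ncr1* and *Nkg7* had at most 5 counts in every library. *Klrb1c*, also in this list, had 42 and 33 counts in EV-RV cells and 35 and 54 in IRF4-RV cells. B cell markers summed to 3768 and 3904 CPM in EV-RV cells and to 2944 and 2894 CPM in IRF4-RV cells. Among them the surrogate light chain genes *Vpreb1* and *Igll1* changed by -1.49 (edgeR adjusted p = 3.82e-05) and -1.30 (edgeR adjusted p = 5.95e-05), *Blnk* and *Ptprc* were called higher, and the other 5 tested were not called. *Rag1* and *Rag2*, also in this list, had at most 1 count in every library and were not tested. The part of cells with *Mrc1*, *Ly6g* or *Xcr1* in the rise of *Cybb* and *Mpeg1* was not tested. *Cybb* was at 34.6 and 30.7 CPM and *Mpeg1* at 95.8 and 98.0 CPM in IRF4-RV replicates 1 and 2, in which the stromal markers were at 47.0 and 221 CPM. A part of stromal cells in these levels was not tested either.

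**Figure D4:**
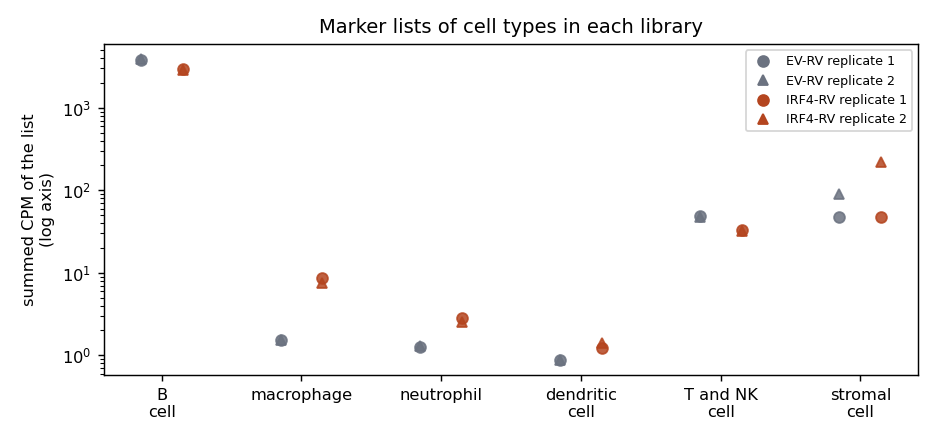
Summed CPM of the markers of 6 cell types in each library, on a log axis (gray, EV-RV; red, IRF4-RV; circles, replicate 1; triangles, replicate 2). Macrophage markers lie between 1.52 and 8.59 CPM and neutrophil markers between 1.26 and 2.83 CPM, and stromal markers are highest in IRF4-RV replicate 2 at 221 CPM.

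Genes with the pattern most like each member across the 4 libraries were found by the root mean square distance of centered log2 CPM. For *Cybb* these were *Rsad2*, which encodes the antiviral protein viperin, at a distance of 0.0949 and the predicted gene *Gm6545* at 0.181. *Mpeg1* was nearest to *Rsad2* at 0.303, to *Cybb* at 0.362 and to *Gm6545* at 0.496, so that the list of *Mpeg1* held *Cybb* itself. *Ncf1* was nearest to *A630001G21Rik* at 0.0316, *Manea* at 0.0318 and *Irf1* at 0.0338. *Ncf4* was nearest to *Tmem238*, *AA414768* and *Pou4f1*, at distances from 0.00889 to 0.0249. *Cyba* was nearest to *Anapc13*, *Mrps33* and *Fth1*, and *Rac2* to *Brox*, *Mex3c* and *Syf2*, at distances of at most 0.00995. With 2 libraries per group, such a distance mostly compares the size of 1 difference.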

How the data were processed

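Bulk RNAseq of 2 EV-RV and 2 IRF4-RV libraries of T8 cells was analyzed. Per the submitters' processing notes, STAR 2.4.0j and GRCm38 were used, and the authors deposited raw counts per gene from featureCounts, without normalization. How strand and multi-mapping reads were handled is not given in the sources used here. Of 55359 identifiers, 52083 matched GENCODE M21, which gave symbols, coordinates and exon lengths. Genes passing filterByExpr were tested in R 4.3.3 with edgeR 4.0.16 (TMM, quasi-likelihood F test, Benjamini-Hochberg adjustment, false discovery rate 0.1, no replicate block). Standard errors were derived from the F statistic. Members and gene lists were chosen with earlier results of these data known. Genes named besides the core genes are the up to 4 called genes with the largest change in a list and the 3 genes most like each member among genes with a mean of at least 50 counts. Some genes under this rule are not reported here and were left out of the counts of the core and promoter regulator lists. Replicates differed by more than sampling noise (chi-square per degree of freedom 14.1 for EV-RV and 13.1 for IRF4-RV). Levels per kb used the union of annotated exons. The test was also run on simulated data with 200 genes changed, against 4349 called here, and the outcome is not reported here. Alternatives were DESeq2 1.42.0, its size factors, library size only, other filters, the replicate block, a false discovery rate of 0.05, other gene lengths (longest and mean coding transcript) and leaving out each library. Sequences came from RefSeq (GRCm38.p6).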

Additional observations from a re-analysis of the deposited data

How the results depend on the processing

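All settings were planned. Counts of called genes stayed within 1.5 times of 4349, between 3347 and 6394 (3573 to 3646 with a library left out), and those of the 6 genes between 4 and 6. The log2 level per kb of *Ncf1* minus *Cybb* kept its sign in each setting. With EV-RV it was 5.06, and 4.28 with the mean coding transcript length, and it ranged from 4.92 to 5.20 with a library left out. With IRF4-RV it was -0.45, -0.40 with the longest transcript and -1.24 with the mean coding transcript length. These moves follow from the lengths used. DESeq2 called 3661 genes, and 0 of the 3 genes tested among pore partners, of which 2 had an unadjusted p under 0.05. That list had 1 call with library size only and 1 at a false discovery rate of 0.05, against 2. Same-numbered libraries share only a number, and their deviations correlated across genes with r = 0.242. With the replicate block, 6394 genes were called and all 6 members, and calls rose from 5 to 10 among genes acting on the oxidase, from 3 to 6 for NADPH supply and from 4 to 7 for phagocytic receptors. Depth limits what can be said of genes with at most 3 counts.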
